A study of Mus musculus with 9 samples.

Results

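CC chemokines are small secreted proteins, named for 2 adjacent cysteines, that steer leukocytes through G protein-coupled receptors. The transcripts of 10 of them, Ccl2, Ccl3, Ccl4, Ccl5, Ccl6, Ccl7, Ccl9, Ccl12, Ccl17 and Ccl22, were examined in mouse bone marrow-derived macrophages (BMDMs). They were taken by gene symbol, and each of the 10 matched 1 of the 55655 rows of the expression tables by its Ensembl identifier. The cells came from wild-type C57BL/6 mice aged 6 to 8 weeks and were grown for 7 days in M-CSF (10 ng/mL), under which marrow cells mature into resting (M0) macrophages. The M0 samples are labelled M0 by title and cell type and as not treated with PBM, although their treatment text is the one that describes polarization with LPS and IFN-γ. M1 macrophages were polarized with LPS (100 ng/mL), an endotoxin of Gram-negative bacteria, and with the cytokine IFN-γ (20 ng/mL). M1 + PBM macrophages were given the same LPS and IFN-γ together with photobiomodulation (PBM), an 808-nm laser at 6 mW/cm2 for 7 minutes every 12 hours, and their RNA was collected at 12 hours, as was that of the M1 cells. Each group held 3 libraries. Nothing in the labels ties a library to an animal, so a p-value measures the spread between these libraries, which may in part be technical.

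In macrophages, Ccl2, Ccl7 and Ccl12 are monocyte attractants that act mainly through CCR2. Ccl3, Ccl4 and Ccl5 draw monocytes, T cells and NK cells, and Ccl6 and Ccl9 are myeloid chemokines that signal through CCR1. Ccl17 and Ccl22 are ligands of CCR4, the receptor of regulatory and type 2 helper T cells. LPS turns on many of these genes through NF-κB, interferons add the IRF and STAT factors, and mRNA decay limits how long the transcripts last. Of the 10 genes, 8 lie on chromosome 11 and 2, Ccl17 and Ccl22, on chromosome 8. By the order of genes in GRCm38.p6, Ccl2 lies next to Ccl7, and Ccl9, Ccl6, Ccl3 and Ccl4 follow one another after Ccl5. The genome build behind the deposited values is given only as mm9 in the processing notes. The only coordinates printed are those of promoter windows, in GRCm38.p6.

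Expression is given as FPKM, fragments scaled by transcript length and library size, so that levels of different genes can be compared. Steps in the low FPKM values pointed to roughly 30670000 to 41950000 fragments per library, although only 24.3% to 25.8% of low values fell on such steps. Evenly spread values would give 10% at a depth fixed in advance. The depth was instead chosen for the highest share, so it is an approximation. The macrophage list had all 7 of its markers at 1 FPKM or more in each group. Of the markers of dendritic cells and of T, B and NK cells, 0 of 7 and 0 of 6 reached an FPKM of 1 in any library. The 8 neutrophil markers summed to 1.44 to 2.44 FPKM in M0, 8.94 to 28.1 in M1 and 6.44 to 15.05 in M1 + PBM, most of it S100a8, while Ly6g and S100a9 were listed at 0 in all 9 libraries. M0 replicate 3 stood apart. The summed FPKM of 6 genes induced by LPS and IFN-γ was 256.9 in it, against 18.1 and 16.1 in M0 replicates 1 and 2 and 903 to 1171 in M1. Of the 256.9, 233 was Tnf. Nos2, Il6 and Cd86 had 1.79, 0.85 and 1.35 FPKM in it, above the other M0 libraries but far below M1. Cxcl10 had 16.1 FPKM in it, against 0.49 and 0.15 in M0 replicates 1 and 2 and 313 to 523 in M1. Cxcl9 had 3.51 FPKM in it, against 0 and 0.02 in those libraries and 7.38 to 28.9 in M1. The Tnf of 233 FPKM compares with 295 to 443 in M1. The summed FPKM of 6 stromal markers, mostly Col1a1 and Col1a2, was 181 in M0 replicate 3 and 3.32 to 25.9 in the other 8 libraries. M1 replicate 2 held liver transcripts, with a summed FPKM of 19.0 over 7 liver genes against 0.756 to 3.61 elsewhere. The main values that rest on these libraries are also given without them.

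Resting macrophages already transcribed most of these genes. Ccl9 was the most abundant CC chemokine in M0, with 123, 54.0 and 194 FPKM in M0 replicates 1 to 3. Ccl6 followed with 60.1, 51.5 and 62.1 FPKM, the narrowest spread of the 10 genes relative to its mean (57.9 ± 5.64, SD, n = 3 libraries). Ccl3 and Ccl4 averaged 35.1 ± 19.6 and 27.3 ± 16.7 FPKM. The ranges of neighbouring genes overlapped all the way down this order, from Ccl9 to Ccl22, so no step in it was larger than the spread between M0 libraries. Ccl17 was listed at 0 in M0 replicates 1 and 2 and had 0.36 FPKM in replicate 3.

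In M1 macrophages the family was higher and its order different. The M1 and M0 libraries stand in separate tables, so the values across them are descriptions with no test. The summed FPKM of the 10 genes was 237.5, 160.3 and 476 in M0 and 3101, 2921 and 4692 in M1. In M1, 8 of the 10 genes were above every M0 library, a pattern found in 15.6% of the 13915 rows that reached 1 FPKM in 3 or more of the 9 libraries. Over these rows M0 and M1 did not overlap in 66.3%, and 50.6% were lower in M1, which was the case for 0 of the 10 genes. These shares were taken from the FPKM as given. Size factors by median of ratios were 1.22 to 1.31 in M0 and 0.82 to 0.94 in M1, and the shares were not recomputed with them. A difference of at least 2 in log2(FPKM + 1) was found for 7 of the 10 genes and 3.47% of the rows. In M1 + PBM, 7 of the 10 were above every M0 library, where 15.9% of the rows were. Ccl17 counts among the 10 and among these 7 but is not among the 13915 rows, as it reached 1 FPKM in 1 library only. Ccl22 entered those rows only through libraries given LPS and IFN-γ. Ccl5 and Ccl12 reached 1 FPKM in too few M0 libraries to enter without them. The higher level of these genes than in M0 was thus partly set by the minimum. The median difference of the 10 genes, M1 minus M0 in log2(FPKM + 1), was 3.20, while the median of all those rows was -0.34. The 2 genes whose M0 and M1 libraries overlapped were Ccl6 and Ccl17.

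**Figure D1:**
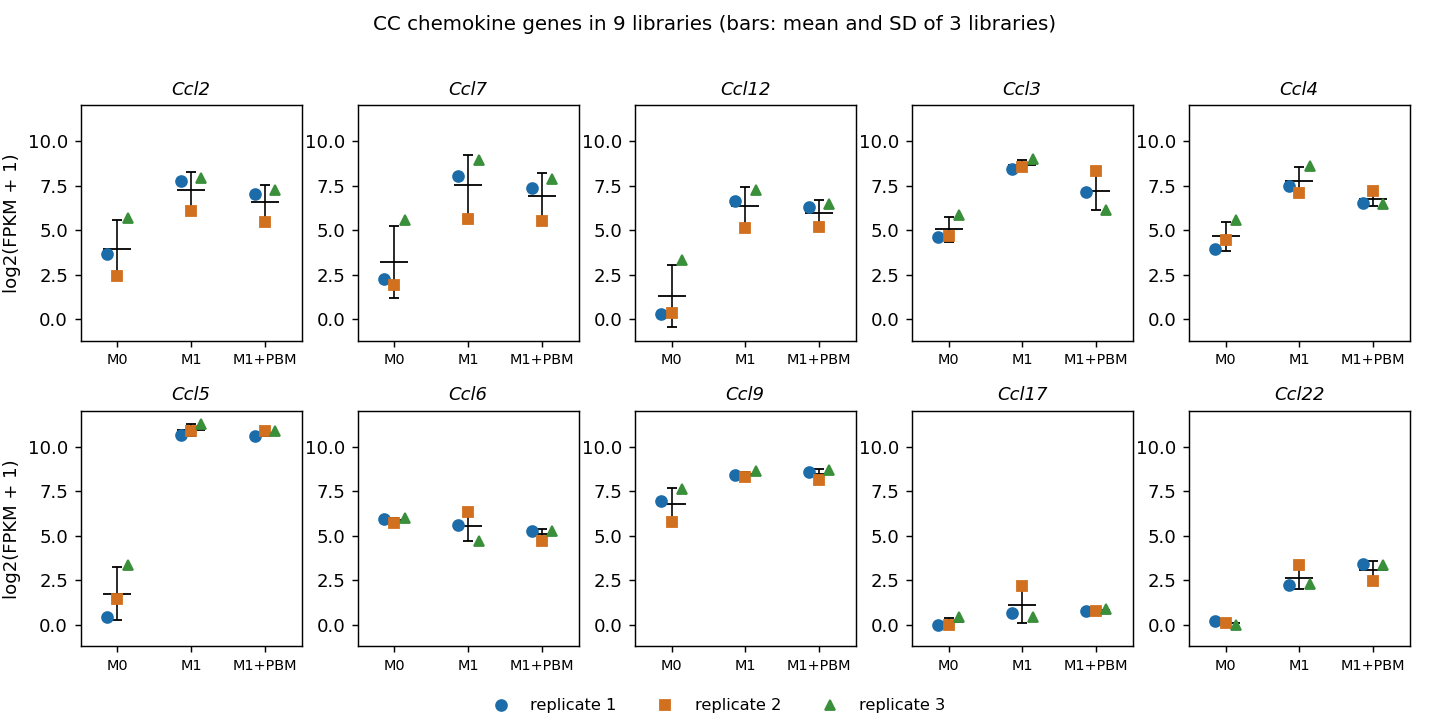
Expression of the 10 CC chemokine genes as log2(FPKM + 1) in M0, M1 and M1 + PBM libraries. Symbols mark the replicate number, horizontal bars the mean and whiskers the SD of 3 libraries. Ccl5 reaches 1606 FPKM or more in each M1 library, and M0 replicate 3 lies above the other M0 libraries for Ccl2, Ccl7 and Ccl12.

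Ccl5, also called RANTES, showed the largest difference. Its FPKM was 0.37, 1.75 and 9.49 in M0 replicates 1 to 3. In M1 it was 1606, 1854 and 2491, a difference of 9.16 in log2(FPKM + 1). All M1 libraries were far above all M0 libraries, and the difference was 9.97 without M0 replicate 3. Ccl5 made up between 51.8% and 63.5% of the summed FPKM of the 10 genes in M1 and at most 1.99% in M0. In M1 its range lay above that of the next gene, Ccl3, and did not overlap it. Ccl9 made up 33.7% to 52.0% of it in M0 and 8.36% to 10.9% in M1, and Ccl6 13.0% to 32.1% in M0 and 0.54% to 2.78% in M1.

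The CCR2 ligands Ccl12, Ccl7 and Ccl2 were also higher in M1. Ccl12 had 0.24, 0.27 and 8.90 FPKM in M0 and 101, 34.1 and 149 FPKM in M1, a difference of 5.02 in log2(FPKM + 1). Ccl7 had 3.78, 2.75 and 46.5 FPKM in M0, and its difference was 4.28. Ccl2 had 11.7, 4.34 and 51.3 FPKM in M0, and its difference was 3.33. In all 3 genes M0 replicate 3 was the highest M0 library and still lay below every M1 library, while for Ccl2 and Ccl7 it lay above M1 + PBM replicate 2. M0 replicate 3 was 34.7 times the mean of the other M0 libraries for Ccl12, 14.2 times for Ccl7 and 6.41 times for Ccl2. Without M0 replicate 3 the differences were 6.02 for Ccl12, 5.44 for Ccl7 and 4.22 for Ccl2. The summed stromal markers, mostly Col1a1 and Col1a2, and the summed LPS-induced genes, mostly Tnf, were also high in that library. Their part in these values was not tested. Over the 13915 rows, M0 replicate 3 was above 2 times both other M0 libraries in 4.35% of them. This was so for 7 of the 10 CC chemokine genes, which include Ccl17, a gene not among those rows.

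Ccl3 had 23.4, 24.3 and 57.8 FPKM in M0 and Ccl4 14.4, 21.4 and 46.2 FPKM. These genes, which encode MIP-1α and MIP-1β, differed by 3.61 and 3.08 in log2(FPKM + 1) between M0 and M1, and by 4.02 and 3.53 without M0 replicate 3. Ccl22 had 0.17, 0.075 and 0.014 FPKM in M0 and 3.75, 9.36 and 3.92 FPKM in M1. Ccl9 differed less, from 123.7 ± 69.8 to 348.8 ± 38.4 FPKM (SD, n = 3 libraries each), a difference of 1.66 in log2(FPKM + 1), or 2.07 without M0 replicate 3. The M0 and M1 libraries did not overlap for any of these 4 genes. Ccl6 went from 57.9 ± 5.64 to 51.3 ± 28.2 FPKM, and its M1 libraries, at 47.3, 81.3 and 25.3 FPKM, lay on both sides of the M0 values. Its difference of -0.32 in log2(FPKM + 1) turned positive with median-of-ratios scaling (0.18) and without M1 replicate 3 (0.10). Ccl17 had 0.59, 3.61 and 0.35 FPKM in M1, and M1 replicate 3 was below M0 replicate 3.

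**Figure D2:**
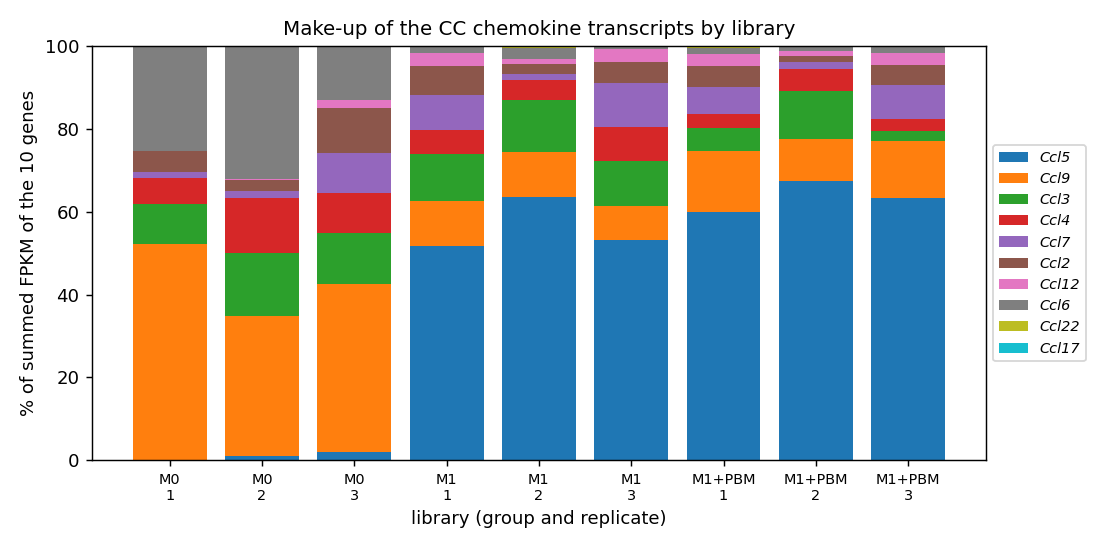
Share of each CC chemokine gene in the summed FPKM of the 10 genes, in percent, for each of the 9 libraries. Ccl9 and Ccl6 fill most of the bar in M0 replicates 1 to 3, and Ccl5 takes over 50% in all 6 libraries given LPS and IFN-γ.

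The effect of PBM was examined by comparing the 3 M1 + PBM with the 3 M1 libraries. A gene was called when limma's unadjusted p was at most 0.05 and the log2 fold change on log2(FPKM + 1) at least 1 in size, the thresholds used in the study. The fit took in 12238 rows, those that reached 1 FPKM in 3 or more of the 6 libraries, and among them 9 of the 10 genes. Ccl17 was below this minimum. Ccl3 and Ccl4 fell with PBM by these thresholds, and 0 rose. Over all rows tested, 0.261% were called, split into 0.237% that fell and 0.0245% that rose. The log2 fold change was below 0 for 7 of the 9 genes and for 34.4% of the rows, a share that was 51.4% with median-of-ratios scaling, where 8 of the 9 genes were below 0. The median log2 fold change of the 9 genes was -0.47, against 0.058 for all rows. After adjustment over all rows 0 of the 9 had a p under 0.05 (limma), as was the case for all but 0.00817% of the rows, and 2 of the 9 had an unadjusted p up to 0.05, where 4.44% of the rows had one. By a two-sided exact permutation test, which cannot give a p below 0.1 for 3 libraries against 3, 1 gene, Ccl3, reached that value. It was also the only one of the 10 whose groups did not overlap, as was true of 2.52% of all rows in the lower direction and 8.51% in the higher. The summed FPKM of the 6 LPS- and IFN-γ-induced genes was also lower with PBM. It was 635, 812 and 581 against 1107, 903 and 1171 in M1, with no overlap. By gene, Nos2, Il6 and Cd86 were lower with no overlap, and Tnf and Cxcl10 were lower on average with overlap. Cxcl9 averaged 15.5 FPKM in M1 and 16.9 FPKM in M1 + PBM. The part of a general difference in the response in the values of Ccl3 and Ccl4 was not tested.

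**Figure D3:**
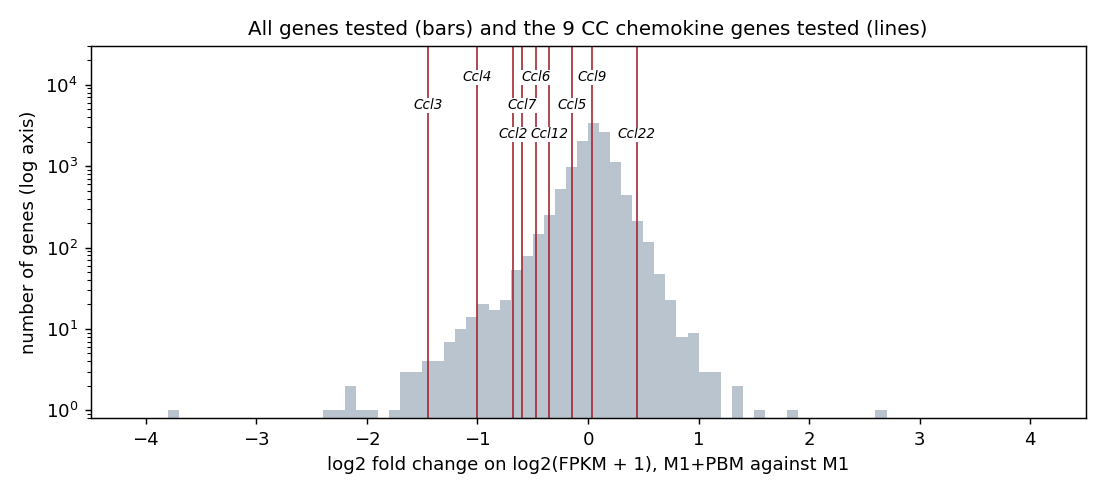
Number of genes (log axis) by log2 fold change, M1 + PBM against M1, for all 12238 rows tested, with lines at the 9 CC chemokine genes tested. Ccl3 (-1.45) and Ccl4 (-1.0) lie farthest to the left, and Ccl9 (0.035) and Ccl22 (0.44) lie above 0.

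Ccl3 had 350.4, 370.3 and 501 FPKM in M1 replicates 1 to 3. In M1 + PBM it had 139, 322 and 70.6 FPKM. The groups did not overlap, but in replicate 2 the fall was small, at 0.868 times its M1 counterpart, while replicate 3 was at 0.141 times. The log2 fold change of Ccl3 came to -1.45 (SE 0.52, limma, unadjusted p = 0.029, adjusted p = 0.90). Without M1 + PBM replicate 2 it was -2.01. Leaving out M1 replicate 1, 2 or 3 gave -1.55, -1.51 and -1.29, and leaving out M1 + PBM replicate 1 or 3 gave -1.41 and -0.93, and in each of these 5 fits Ccl3 no longer passed the thresholds.

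Ccl4 stood at 181, 135 and 393 FPKM in M1 and at 91.6, 146 and 88.4 FPKM in M1 + PBM. Its groups overlapped, because M1 + PBM replicate 2 lay above M1 replicate 2 (exact permutation p = 0.2). For Ccl4 it came to -1.0 (SE 0.41, limma, unadjusted p = 0.049, adjusted p = 0.90), which is just at both thresholds. With the replicate number as a block the unadjusted p was 0.069 (limma) and Ccl4 was not called. Without M1 replicate 3, the library with the highest Ccl4, the log2 fold change was -0.56, and it was also not called without M1 replicate 1 (-1.12), M1 + PBM replicate 1 (-0.90) or M1 + PBM replicate 3 (-0.87). The levels of Ccl3 and Ccl4 ran alike over the 6 libraries (Pearson r = 0.81 on the log2 scale, a description over libraries that share treatment and depth).

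AU-rich elements in the 3′ UTR, which bind decay factors such as TTP, are a mark of many short-lived transcripts. No transcript lifetime was measured here. The longest coding transcript of each gene in GENCODE M21 was searched for the heptamer TATTTAT on the sense strand. It was found once each in Ccl3, Ccl4, Ccl12 and Ccl22, and not in the other 6. It is held by 27.3% of all 20988 genes with a 3′ UTR, and by 11.8% of the 9742 whose 3′ UTR has 100 to 1000 bases, a range that takes in 8 of the 10 genes but not Ccl9 and Ccl22. The 4 sites are shown because 2 of them belong to the transcripts that fell with PBM and 2 to transcripts that were not called. The heptamer is in capitals, with up to 10 bases on either side.
Ccl3: tatttgtgacTATTTATtctgaaagac
Ccl4: ttatttctatTATTTATgttttagtta
Ccl12: ggcagtgtgaTATTTATtatgatatct
Ccl22: gctatagttaTATTTATataggaaaga
The shorter ATTTA, which lies within the heptamer, occurred 5 times each in Ccl3, Ccl9 and Ccl12, whose 3′ UTR has 167 bases. It occurred 4 times in Ccl6, 2 times each in Ccl4, Ccl7 and Ccl22, and 1 time in Ccl2. It occurred 0 times in Ccl5 and Ccl17. Of the 9742 genes with a 3′ UTR of 100 to 1000 bases, 44.9% held at least 1 ATTTA and 9.79% at least 3. The heptamer was thus present in both called genes and also in Ccl12 and Ccl22, which were not called. A link between the element and the change with PBM was not tested.

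Ccl2, Ccl7 and Ccl12 formed a second group with a different pattern. Ccl2, the gene of MCP-1, had 217, 66.1 and 245 FPKM in M1 replicates 1 to 3 and 129, 43.8 and 149.8 FPKM in M1 + PBM. In both groups replicate 2 was far below replicates 1 and 3, so that the groups overlapped (exact permutation p = 0.5). Within each number the M1 + PBM library was lower by nearly the same factor, at 0.595, 0.663 and 0.611 times its M1 counterpart. The log2 fold change of Ccl2 came to -0.68 (SE 0.65) with a 95% interval of -2.23 to 0.87 (limma, unadjusted p = 0.33). With the replicate number as a block the standard error was 0.077 and the unadjusted p 0.00041, while the adjusted p over all rows was 0.53 (limma). The fold threshold was not reached in either fit. When 1 library was left out the log2 fold change of Ccl2 moved with the replicate it lost, from -1.27 without M1 replicate 2 to -0.13 without M1 + PBM replicate 2. Dropping M1 + PBM replicate 3 gave -1.01, and dropping M1 replicate 3 gave -0.34.

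Ccl7, which encodes MCP-3, had 259, 48.0 and 491 FPKM in M1 and 167, 44.1 and 238 FPKM in M1 + PBM. It was lower with PBM in each of the 3 numbers, at 0.643, 0.919 and 0.486 times M1. The log2 fold change of Ccl7 came to -0.60 (SE 0.97, limma, unadjusted p = 0.56), and with the replicate block the unadjusted p was 0.026 (limma, adjusted p = 0.58). Ccl12, which encodes MCP-5, had 101, 34.1 and 149 FPKM in M1 and 78.7, 35.6 and 87.6 FPKM in M1 + PBM. In replicate 2 the Ccl12 values were nearly equal, and the log2 fold change came to -0.35 (SE 0.59, limma, unadjusted p = 0.57). Of the 10 genes, 3 were lower in all 3 numbers, namely Ccl2, Ccl3 and Ccl7, as were 10.1% of all rows. With the replicate block, 3 of the 9 tested genes, again Ccl2, Ccl3 and Ccl7, had an unadjusted p up to 0.05 (limma) and a lower level in M1 + PBM, where 8.07% of all rows had such a p in either direction and 3.24% in the lower.

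Over the 6 libraries Ccl7 and Ccl12 had nearly the same profile, and Ccl2 followed both, with r of 0.97 against Ccl7 and 0.96 against Ccl12. With Ccl3, the r of Ccl2 was -0.04. The stromal markers were lowest in the replicate 2 libraries as well, summing to 8.44 FPKM in M1 and 3.32 FPKM in M1 + PBM, against 11.5 and 12.2 in the other M1 and 20.9 and 25.9 in the other M1 + PBM libraries. The part of stromal RNA in the levels of Ccl2, Ccl7 and Ccl12 was not tested. With both libraries numbered 2 left out, the log2 fold change of Ccl2 was -0.73 (SE 0.16, limma, unadjusted p = 0.0075, adjusted p = 0.53).

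**Figure D4:**
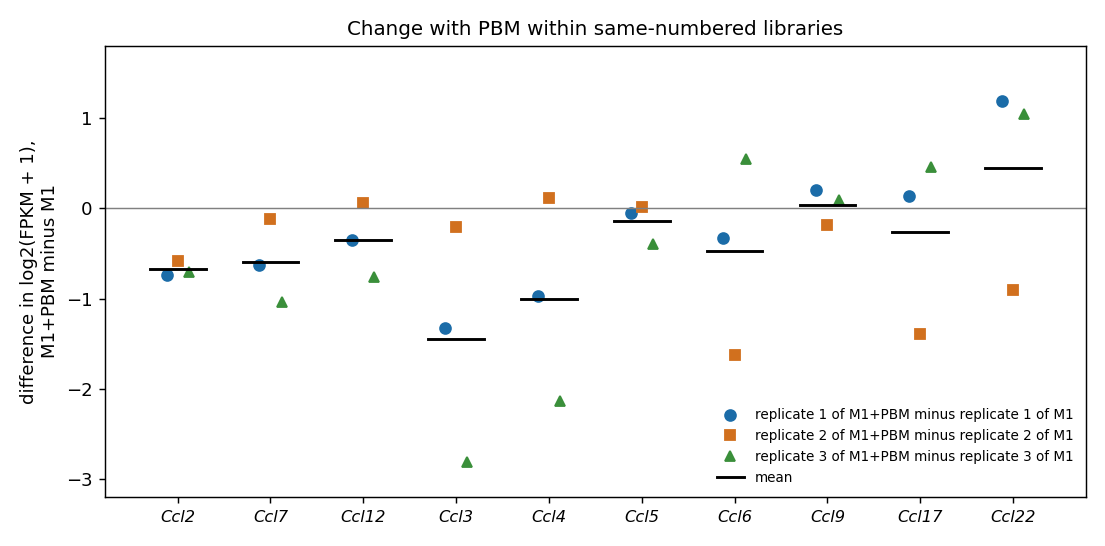
Difference in log2(FPKM + 1) between the M1 + PBM and the M1 library of the same replicate number for each of the 10 CC chemokine genes, with the mean of the 3 differences as a black line. Those of Ccl2 lie close together between -0.74 and -0.58, while those of Ccl3 range from -2.81 to -0.20 and those of Ccl22 from -0.91 to 1.19.

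Ccl5 remained the most abundant of the 10 genes under PBM. Its FPKM was 1545, 1875 and 1888 in M1 + PBM, beside the M1 values of 1606, 1854 and 2491. The groups overlapped, and the log2 fold change of Ccl5 came to -0.15 (SE 0.19, limma, unadjusted p = 0.47). The 95% interval of -0.61 to 0.32 leaves out the fall of Ccl3, although that gene's own interval, from -2.69 to -0.20, reaches into it. The difference between the changes of the 2 genes was not tested. The share of Ccl5 in the summed FPKM of the 10 genes was 59.8%, 67.5% and 63.2% in M1 + PBM.

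Ccl9 and Ccl6, the chemokines that dominated resting cells, behaved differently from each other in spread. Ccl9 had 335, 319 and 392 FPKM in M1 and 385, 281 and 417 FPKM in M1 + PBM, a log2 fold change of 0.035 with a 95% interval of -0.39 to 0.46 (limma, unadjusted p = 0.85). It was above 0 here and below 0 when libraries were scaled by median of ratios (-0.045). Ccl6 had 47.3, 81.3 and 25.3 FPKM in M1 and 37.5, 25.7 and 37.3 FPKM in M1 + PBM. Its M1 values spread over a wider range than its M1 + PBM values, and its change ran from -1.62 in replicate 2 to 0.54 in replicate 3 (log2 fold change -0.47, limma, unadjusted p = 0.29). Without M1 replicate 2, the library with liver transcripts, the log2 fold change of Ccl6 was -0.068, and without M1 replicate 3 it was -0.89 (limma, unadjusted p = 0.023, adjusted p = 0.94). Ccl9 stretches of 50 bases were shared with transcripts of 463 other genes, for 109 of its 2996 such stretches, so a small part of its reads could be of uncertain origin. The other 9 genes shared 0 such stretches with any other transcript.

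Promoter windows, 250 bases before to 50 after the start in GRCm38.p6, were at hand for 6 of the 10 genes, Ccl3, Ccl6, Ccl9, Ccl12, Ccl17 and Ccl22. Those of Ccl2, Ccl4, Ccl5 and Ccl7 were missing from the set of windows used and were not searched. They were searched on both strands for an NF-κB (kB) consensus, the ISRE core GAAANNGAAA, the GAS motif TTCNNNGAA and its STAT6 spacing TTCNNNNGAA. The kB consensus was present in Ccl9 alone, the GAS motif and the STAT6 spacing in Ccl17 alone, and the ISRE core in 0 of the 6. Over all 32851 windows these motifs occurred in 4.51%, 8.30%, 6.95% and 3.44% in the order kB, GAS, STAT6 spacing and ISRE core. The windows of Ccl9 and Ccl17, which hold matches, are shown beside that of Ccl3, the gene with the largest fall, which holds none. Matches are in capitals and are descriptions of the letters only.
Ccl3, chr11:83649329-83649628, minus strand: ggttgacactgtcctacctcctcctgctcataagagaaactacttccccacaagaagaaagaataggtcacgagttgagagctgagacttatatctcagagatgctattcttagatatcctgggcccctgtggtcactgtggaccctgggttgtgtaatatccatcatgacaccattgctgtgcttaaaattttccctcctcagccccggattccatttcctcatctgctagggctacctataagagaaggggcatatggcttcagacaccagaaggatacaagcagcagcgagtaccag
Ccl9, chr11:83578587-83578886, minus strand: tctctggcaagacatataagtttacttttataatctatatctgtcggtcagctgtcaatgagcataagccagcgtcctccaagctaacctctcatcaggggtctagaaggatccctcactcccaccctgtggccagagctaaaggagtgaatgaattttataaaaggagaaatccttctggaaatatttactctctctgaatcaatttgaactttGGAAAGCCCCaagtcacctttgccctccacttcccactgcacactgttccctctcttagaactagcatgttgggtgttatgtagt
Ccl17, chr8:94810203-94810502, plus strand: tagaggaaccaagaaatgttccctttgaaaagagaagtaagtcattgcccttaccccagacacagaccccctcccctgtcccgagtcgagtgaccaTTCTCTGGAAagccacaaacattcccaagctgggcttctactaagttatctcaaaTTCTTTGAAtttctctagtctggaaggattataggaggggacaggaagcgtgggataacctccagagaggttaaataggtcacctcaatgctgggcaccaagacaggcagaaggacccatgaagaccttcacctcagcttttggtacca

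The CCR4 ligands Ccl22 and Ccl17 were the least abundant of the 10 genes. Ccl22 had 3.75, 9.36 and 3.92 FPKM in M1 and 9.80, 4.53 and 9.17 FPKM in M1 + PBM. It was higher with PBM in replicates 1 and 3 and lower in replicate 2, so that the groups overlapped and the log2 fold change of 0.44 had a 95% interval of -0.48 to 1.37 (limma, unadjusted p = 0.29). With both replicate 2 libraries left out, the log2 fold change of Ccl22 was 1.12 (SE 0.12, limma, unadjusted p = 0.00032, adjusted p = 0.32), past the thresholds. Without M1 replicate 2 alone it was 0.81, and dropping M1 + PBM replicate 2 alone gave 0.75, while leaving out any of the other 4 libraries gave 0.25 to 0.31.

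Ccl17, too low for the test across genes, had 0.75, 0.76 and 0.85 FPKM in M1 + PBM, against 0.59, 3.61 and 0.35 FPKM in M1. By the approximate depths, these values rest on roughly 6 to 68 fragments per M1 library and 13 to 16 per M1 + PBM library. Its difference was -0.27 in log2(FPKM + 1) (exact permutation p = 1) and 0.28 without M1 replicate 2. M1 replicate 2 held the highest value of Ccl17, of Ccl22 and of Ccl6 among the M1 libraries. Dendritic cells are known for Ccl17 and Ccl22. Their 7 markers summed to 0.32 to 0.41 FPKM in M0, 0.67 to 1.23 in M1 and 0.43 to 0.99 in M1 + PBM. Flt3 was listed at 0 in all 9 libraries. Xcr1 averaged 0.041 FPKM in M0 and 0.35 in M1, and Ccr7 0.0049 and 0.27, while Zbtb46 averaged 0.20 and 0.14. The part of such cells in the levels of Ccl17 and Ccl22 was not tested.

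**Figure D5:**
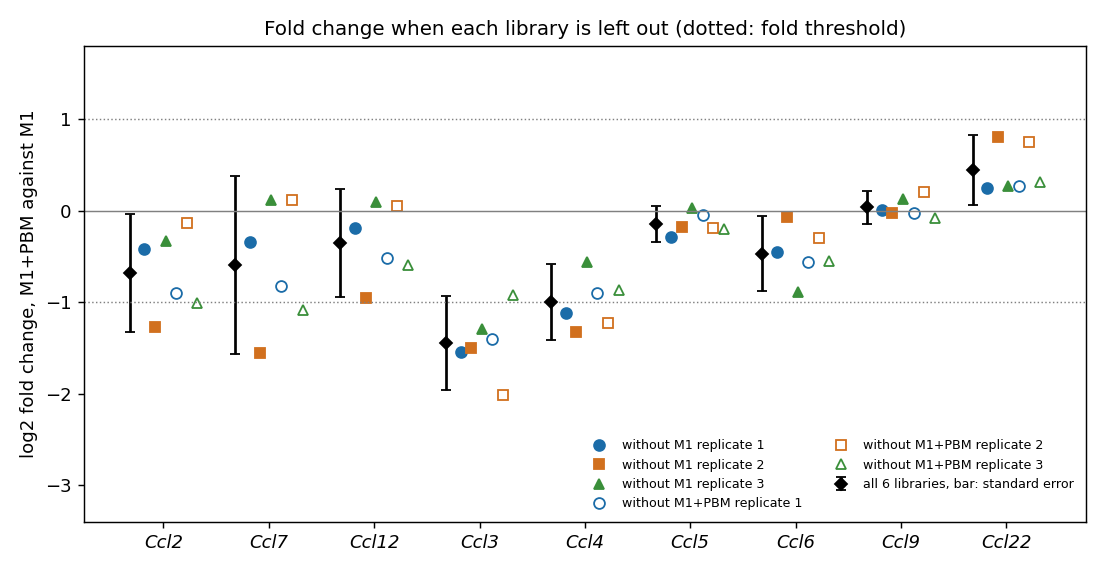
Log2 fold change, M1 + PBM against M1, of the 9 CC chemokine genes tested, with all 6 libraries (diamonds, whiskers the standard error from limma) and with each library left out. Ccl3 and Ccl4 stay below 0 throughout, and Ccl7 moves from -1.55 without M1 replicate 2 to 0.12 without M1 + PBM replicate 2.

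Other genes of the CC chemokine system are given from lists of ligands, receptors and regulators. Of 11 further CC ligands, 2 passed the minimum FPKM, and 0 were called. Ccl8, a ligand of CCR8 in mice, had 7.40, 8.00 and 16.3 FPKM in M1 and 11.7, 8.69 and 20.6 FPKM in M1 + PBM. It was higher with PBM in each number (log2 fold change 0.34, limma, unadjusted p = 0.40, and 0.037 with the replicate block). Ccl1, Ccl21a and Ccl26 were listed at 0 in all 9 libraries.

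Of 14 receptors of CC chemokines, 4 were tested and 0 were called. Ccrl2, an atypical receptor induced by LPS, was the most abundant, with 85.5, 89.3 and 67.0 FPKM in M1 and 43.1, 90.2 and 17.9 FPKM in M1 + PBM. As with Ccl3, its replicate 2 libraries were alike and its replicate 3 libraries far apart (log2 fold change -0.94, limma, unadjusted p = 0.13, and 0.049 with the replicate block). Ccr3, known from eosinophils, had 2.25, 1.40 and 3.53 FPKM in M1 and 5.94, 1.53 and 8.85 FPKM in M1 + PBM (log2 fold change 0.76, limma, unadjusted p = 0.18, and 0.025 with the replicate block), higher with PBM in each number. Ccr2, the receptor of Ccl2, was below 1 FPKM in all 9 libraries, as was Ccr4, the receptor of Ccl17 and Ccl22.

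Of 22 factors that act on CC chemokine genes or their mRNAs, 21 were tested and 0 were called, while 3 were lower with an unadjusted p up to 0.05 (limma), as were 1.45% of all rows. With the replicate block there were 5 in either direction, where 8.07% of all rows had such a p. They were these 3 with Nfkb2 (log2 fold change -0.47, limma, unadjusted p = 0.035) and Fos (0.41, limma, unadjusted p = 0.029), the latter higher with PBM. Rela, the p65 subunit of NF-κB, went from 33.3 ± 3.85 to 24.4 ± 2.11 FPKM (SD, n = 3 libraries each). This was a log2 fold change of -0.43 (limma, unadjusted p = 0.011, adjusted p = 0.90). Zc3h12a, which encodes the RNase Regnase-1, went from 59.7 ± 6.88 to 41.1 ± 8.22 FPKM, a log2 fold change of -0.54 (limma, unadjusted p = 0.018, adjusted p = 0.90). Cebpb, a transcription factor of inflammatory genes, went from 30.9 ± 0.64 to 23.8 ± 4.41 FPKM, a log2 fold change of -0.38 (limma, unadjusted p = 0.039, adjusted p = 0.90). The M1 and M1 + PBM libraries did not overlap for any of the 3 (exact permutation p = 0.1). These 3 were named for their low limma p, so the lack of overlap follows in part from that choice and is no separate support. Of all rows tested, 2.52% were lower with PBM with no overlap.

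The genes most like Ccl2, Ccl5 and Ccl17 over the 6 libraries were sought by Pearson's r of log2(FPKM + 1), as a description over libraries that share treatment and replicate number. The gene most like Ccl2 was Wfdc17 (r = 0.99), which encodes a secreted antiprotease domain protein and is the next protein-coding gene after Ccl4 on chromosome 11. Wfdc17 had 499, 353 and 499 FPKM in M1 and 439, 302 and 444 FPKM in M1 + PBM. Serpinb9 and Parp3 came next, and 47 genes had an r of at least 0.95. For Ccl5 the 3 genes were Rab6a, Sdc4 and Fbxw11, with 29 genes at that level. For Ccl17 they were Slain2, 0610010K14Rik and Mmgt2, with 8 genes at that level, and M1 replicate 2 had the highest value of all 3.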

How the data were processed

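RNA-seq of 9 libraries was analysed. The values deposited by the authors are FPKM, made with Cufflinks methods, with M0 in a table of its own and M1 and M1 + PBM in another. The submitters' processing notes name Bowtie 0.12.2 and mm9 without a role, and the annotation and filters are not given in the sources used here. Libraries were strand-specific, but whether the counting used strand is not stated. Gm17268 and E230016K23Rik overlap Ccl2 and Ccl6 on the other strand and stayed below 1 FPKM.

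The test of M1 + PBM against M1 used limma 3.58.1 in R 4.3.3 (eBayes with trend) on log2(FPKM + 1), with Benjamini-Hochberg adjustment over all 12238 rows. A fold change on this scale understates that of low genes. M0 entered no test. The test was run on simulated data first. The 10 genes, the lists and the motifs were chosen with earlier results of these data known. Named genes were the 10, listed genes past the thresholds or with the lowest p, and the 3 most alike Ccl2, Ccl5 and Ccl17.

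Deviations from the group means correlated between same-numbered libraries of the 2 groups (r of 0.157, 0.469 and 0.462), weakly so for replicate 1. Between different numbers r was at most 0.033. The deviations within a group cancel out, so this low r follows in part from the other and is no separate support. The numbers were taken to pair the libraries, and a fit with the number as a block was made beside that without it. This pairing was read from the same values that the block fit tests. Other alternatives were another pseudocount, other minima, median-of-ratios scaling, eBayes without the trend, and leaving out each library.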

Additional observations from a re-analysis of the deposited data

How the results depend on the processing

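Over the alternatives for single genes in the comparison of M1 + PBM with M1, 114 values kept their direction and call, 16 lost the call, 1 gained it and 11 changed sign. The 16 were all of Ccl3 and Ccl4, the only genes that had a call to lose, and Ccl4 lost it under most alternatives. Most of the 114 were of genes not called in the main fit. All rows counted, 32 passed the thresholds, against 75 with a pseudocount of 0.1 (52 lower, 23 higher), 94 with that pseudocount and the replicate block, 108 without both replicate 2 libraries, and 27 to 89 when 1 library was left out, the most without M1 + PBM replicate 2 and 69 without M1 replicate 2. At an unadjusted p of at most 0.05 (limma), 177 rows were lower and 366 higher, 283 and 237 with median-of-ratios scaling, and the replicate block gave 988 in all. Of the CC chemokine genes, 2 were called, and 1 under each of median-of-ratios scaling, no minimum FPKM, a minimum mean of 5 FPKM, the replicate block, and the block with a pseudocount of 0.1. With no minimum and the block 0 were called, with an unadjusted p of at most 0.05 for 2 (limma). Leaving out 1 library gave 0 to 2. The median of the 9 genes ranged from -0.96, without M1 replicate 2, to 0.030, without M1 replicate 3, and leaving out M1 + PBM replicate 2 gave -0.13. The cause was not tested.

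Sign changes were those of Ccl9 with median-of-ratios scaling (-0.045) and Ccl6 without both replicate 2 libraries (0.11), and those that came with leaving out 1 library. Over these fits Ccl5 ranged from -0.29 to 0.030, Ccl7 from -1.55 to 0.12, Ccl9 from -0.079 to 0.20, Ccl12 from -0.96 to 0.091 and Ccl17, too low for the test, from -0.60 to 0.28. Between M0 and M1, 8 to 9 of the 10 genes did not overlap under the alternatives, and a pseudocount of 0.1 moved the differences of Ccl17 and Ccl22 to 2.66 and 4.91, while that of Ccl6 changed sign under 2 of its alternatives. Alternatives that left out both replicate 2 libraries or joined the block with another setting were chosen after the data were seen. FPKM carry no exact depth, which limits Ccl17 most.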
